A study of Mus musculus with 4 samples.

Results

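The miR-379/miR-410 cluster is the distal group of microRNAs (miRNAs) in the imprinted Dlk1-Dio3 region of mouse chromosome 12. Its miRNAs were selected by name, from miR-379 at one end to miR-410 at the other, without use of their levels. All 37 names had a probe on the panel, and 43 of the 566 probes for mouse miRNAs belonged to them. Levels were measured with the NanoString nCounter assay, which counts barcoded probes bound to mature miRNAs, in 2 wild-type (WT) and 2 triple-knockout (TKO) samples. WT cells were R1 mouse embryonic stem cells (ESCs), and TKO cells were R1 ESCs in which the genes of all 3 DNA methyltransferases (DNMTs), Dnmt1, Dnmt3a and Dnmt3b, had been knocked out. Both were grown on gelatin in serum with leukemia inhibitory factor, and the labels also state 4 days of differentiation before RNA was isolated, for both genotypes alike. The submitters call the replicates biological, and the labels name a single TKO line. The comparison therefore cannot tell the loss of the DNMTs from other differences between this line and the WT cells. No mRNA was measured, and the knockout was not checked here.

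The Dlk1-Dio3 region is a classic imprinted domain. Its protein-coding genes Dlk1, Rtl1 and Dio3 are transcribed from the paternal chromosome, whereas the noncoding RNAs Meg3, Rian and Mirg and the miRNAs processed from them come from the maternal chromosome. A differentially methylated region between Dlk1 and Meg3, which carries DNA methylation on the paternal copy, controls this choice. The miR-379/miR-410 miRNAs are known for high levels in the brain and the placenta, and the activity of the whole domain is known to vary between pluripotent cell lines. DNMT1 copies DNA methylation after replication, and DNMT3a and DNMT3b set it anew, so TKO cells lack all 3 enzymes that place the mark.

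The 37 hairpins lie on the plus strand of chromosome 12 between 109709060 and 109743795 in the GRCm38.p6 annotation of RefSeq, a span of 34.7 kb. They follow the noncoding RNA gene Rian (109603945 to 109661716), and the last of them overlap the gene Mirg (109734981 to 109749458). Of the hairpins, 28 lie before the annotated start of Mirg and 9 within it. Both arms were measured for 6 hairpins, miR-323, miR-369, miR-380, miR-409, miR-654 and miR-666, and 31 hairpins had 1 probe. The arm was part of the probe name for 12 probes and was not given for the other 31.

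The mature sequences below are those of RefSeq for GRCm38.p6, written 5′ to 3′ with the seed, bases 2 to 8, in capitals. The seed is the stretch that pairs with target mRNAs. The first set shows the miRNAs with the 5 highest signals in the cluster and miR-376a, a close relative of the highest. Most probe names do not say which arm was measured, and for these both arms are printed in the first and second sets. In the third set miR-1193, miR-381 and miR-300 are shown only by the arm that resembles another miRNA. That arm need not be the one measured.
miR-376b-5p: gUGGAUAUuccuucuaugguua
miR-376b-3p: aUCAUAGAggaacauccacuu
miR-376a-5p: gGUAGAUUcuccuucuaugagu
miR-376a-3p: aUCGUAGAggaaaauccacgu
miR-377-5p: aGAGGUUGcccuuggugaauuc
miR-377-3p: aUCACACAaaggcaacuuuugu
miR-369-3p: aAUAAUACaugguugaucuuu
miR-543-5p: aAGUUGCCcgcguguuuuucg
miR-543-3p: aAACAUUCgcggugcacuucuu
miR-495-5p: gAAGUUGCccauguuauuuuucg
miR-495-3p: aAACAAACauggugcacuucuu
In this set miR-376b-3p and miR-376a-3p shared 18 of 21 bases and differed by A4G, C13A and U20G, with the base of miR-376b-3p first, then the position from the 5′ end, then the base of miR-376a-3p. Of these, A4G falls in the seed. By the same count miR-495-3p and miR-543-3p shared 18 of 22 bases and differed by A6U and A7U in the seed and by A9G and U10C outside it.

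The second set shows the 3 miRNAs with the smallest p-values in the comparison of the genotypes, described further below.
miR-382-5p: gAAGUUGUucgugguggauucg
miR-382-3p: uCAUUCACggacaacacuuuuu
miR-667-5p: cGGUGCUGguggagcagugagcacg
miR-667-3p: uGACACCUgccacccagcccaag
miR-412-5p: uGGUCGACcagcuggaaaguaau
miR-412-3p: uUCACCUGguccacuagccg
The third set shows the ends of the cluster, miR-379 and miR-410, together with miRNAs that resemble miR-379 or each other.
miR-379-5p: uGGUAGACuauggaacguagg
miR-411-5p: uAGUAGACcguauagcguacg
miR-1193-5p: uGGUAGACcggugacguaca
miR-379-3p: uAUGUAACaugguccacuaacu
miR-411-3p: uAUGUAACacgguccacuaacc
miR-381-3p: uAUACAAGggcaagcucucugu
miR-300-3p: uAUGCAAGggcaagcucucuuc
miR-410-5p: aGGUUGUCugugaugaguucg
miR-410-3p: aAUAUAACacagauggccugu
Here miR-379-5p and miR-1193-5p have the same seed, as do miR-379-3p and miR-411-3p, whereas miR-411-5p differs from miR-379-5p in the seed by G2A. The pair miR-381-3p and miR-300-3p shared 19 of 22 bases, with A4G in the seed and G21U and U22C outside it. Over the 69 mature forms that the reference gives for the 37 hairpins there were 63 distinct seeds, and 12 forms shared a seed with another form of the cluster. For most members, therefore, neighbours on the chromosome do not share a seed.

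Depth was similar among the samples. The counts recovered from the deposited values summed to 551277 and 613666 in WT cells and to 511661 and 538367 in TKO cells. The highest mean was that of miR-294, a member of the miR-290-295 cluster that marks ESCs, at 102133 and 99266 normalized counts in WT against 87839 and 99265 in TKO cells. Background was set at the mean plus 2 SD over 33 viral miRNA probes, that is at 69.2 normalized counts, and 238 of the 566 mouse probes (42.0%) had a mean above it. Values for a probe depend on how well it binds its miRNA, so the order of members by normalized counts is an order of signal and not of molecules.

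The cluster as a whole gave a nearly equal signal in both genotypes. Its 43 probes summed to 13006 and 12916 normalized counts in the WT samples and to 13515 and 13000 in the TKO samples. As a share of the signal of all mouse probes this was 2.21% and 2.17% for the WT samples and 2.68% and 2.26% for the TKO samples. Both TKO shares lay above both WT shares, and for TKO replicate 1, whose share was the highest, the total over all mouse probes was the lowest (504742 against 576059 to 595104 normalized counts in the other samples). In RNA from whole cultures, fewer cells that express a miRNA and less of it per cell cannot be told apart.

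Signal within the cluster was uneven. The 5 highest members held 54.1% of its sum, and 4 members had a mean above 1000 normalized counts. Among the 100 highest mouse probes, 11 were members. At the other end, 19 of the 43 had a mean at or below background. The members nearest that line were miR-494 (mean 69.4 normalized counts), just above it, and miR-487b (62.7), just below.

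**Figure D1:**
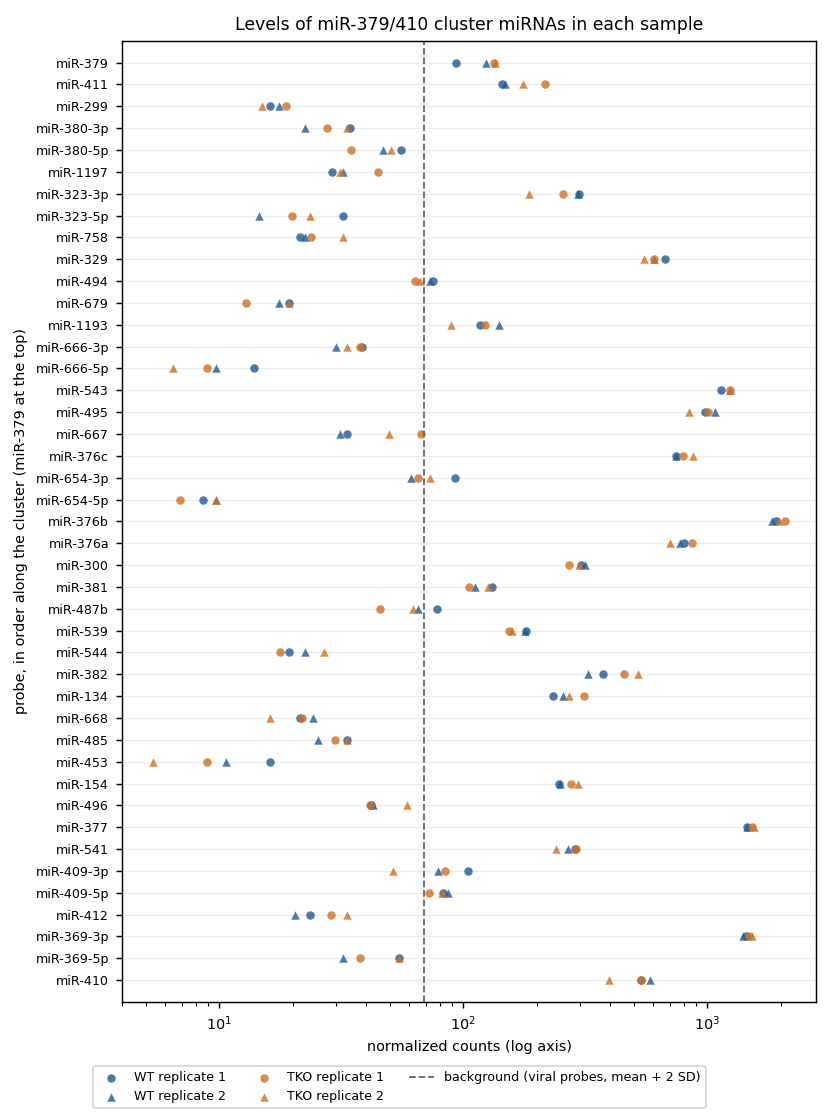
Normalized counts (log axis) of the 43 probes of the miR-379/miR-410 cluster in order along the chromosome, with 1 point per sample (circles for replicate 1, triangles for replicate 2, blue for WT, orange for TKO). The dashed line is the background of 69.2 normalized counts. Members above and below background are interspersed along the cluster, and miR-376b, miR-377, miR-369-3p and miR-543 lie above 1000.

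The highest signal was that of miR-376b, with 1909 and 1835 normalized counts in WT cells, versus 2075 and 1972 in TKO cells. miR-377 followed, with 1449 and 1453 in WT against 1519 and 1555 in TKO cells. For miR-369-3p the counts were 1439 and 1402 in WT, versus 1475 and 1525 in TKO cells. For all 3 both TKO samples lay above both WT samples, as for 17.3% of all mouse probes, but by little. The log2 differences (TKO minus WT, of the normalized count plus 1) were 0.11, 0.083 and 0.078. miR-543 measured 1132 and 1241 in WT against 1232 and 1233 in TKO cells, and miR-495 measured 978 and 1077 in WT, versus 1008 and 838 in TKO cells. Both of these overlapped between the genotypes, with log2 differences of 0.056 and -0.16.

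The other members of the miR-376 family were also among the 10 highest. miR-376c was at 744 and 746 normalized counts in WT cells against 793 and 869 in TKO cells, without overlap (log2 difference 0.16, limma 95% interval -0.24 to 0.55). miR-376a was at 805 and 772 in WT, versus 867 and 702 in TKO cells, with overlap (log2 difference -0.015, interval -0.49 to 0.46). The 3' arms of this family are known targets of A-to-I RNA editing, which changes the seed, and edited forms were not resolved here.

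Several members have been studied in neurons, where miR-134 and miR-329 act on the growth of dendrites. miR-134 measured 233 and 256 normalized counts in WT against 311 and 271 in TKO cells, higher in both TKO samples, with a log2 difference of 0.25 (interval -0.19 to 0.68). miR-329 measured 669.9 and 604 in WT, versus 605 and 552 in TKO cells, a log2 difference of -0.14 (interval -0.56 to 0.28). miR-381 measured 131 and 112 in WT against 106 and 127 in TKO cells, with a log2 difference of -0.062. The genotypes overlapped for miR-329 and miR-381, while for miR-134 both TKO samples lay above both WT samples, as for 17.3% of all mouse probes. None of the 3 passed the limma threshold (adjusted p = 0.66, 0.885 and 0.434 in that order).

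The ends of the cluster had differences of opposite sign, and neither passed the test. miR-379, the first hairpin, measured 93.1 and 123 normalized counts in WT, versus 133 and 135 in TKO cells, higher in both TKO samples (log2 difference 0.32, limma adjusted p = 0.398). miR-410, the last hairpin, measured 533 and 583 in WT against 537 and 393 in TKO cells (log2 difference -0.28, limma adjusted p = 0.501). Its TKO samples differed more from each other than replicate 1 of TKO cells did from either WT sample.

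Single miRNAs were compared with limma and Benjamini-Hochberg adjustment over the 566 mouse probes, in which 8.48% of all probes were called at an adjusted p under 0.05 (4.24% higher and 4.24% lower in TKO cells). Of the 43 cluster probes, limma called 0 higher and 0 lower. The smallest adjusted p was 0.105, for miR-667. At an unadjusted p under 0.05 limma gave 3 members higher and 0 lower, against 8.13% of all probes higher and 15.4% lower. With voom of limma on the recovered counts the adjusted calls were again 0 higher and 0 lower, where 5.3% of all probes were called higher and 9.72% lower, and 3 members were higher and 1 lower at an unadjusted p under 0.05, against 8.48% and 19.1% of all probes. When limma was run with an intensity trend and robust hyperparameters it called 1 member higher, miR-382 (adjusted p = 0.0493), and 0 lower, against 5.65% of all probes higher and 10.1% lower. With the samples scaled on the viral probes limma called 1 member higher, miR-667 (adjusted p = 0.0238), and 0 lower, against 5.83% higher and 4.24% lower.

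The 3 members with an unadjusted p under 0.05 were all higher in TKO cells. miR-382 measured 372 and 322 normalized counts in WT, versus 454 and 519.9 in TKO cells, 1.4-fold on the means (log2 difference 0.49, limma 95% interval 0.028 to 0.94, adjusted p = 0.196). miR-667 measured 33.2 and 31.1 in WT against 67.2 and 49.3 in TKO cells (log2 difference 0.82, interval 0.27 to 1.38). miR-412 measured 23.5 and 20.4 in WT, versus 28.7 and 33.2 in TKO cells (log2 difference 0.48, interval 0.017 to 0.93, limma adjusted p = 0.204). TKO samples lay above WT samples without overlap for each, as for 17.3% of all mouse probes, and these 3 were picked by p-value. Only miR-382 was above background, while every value of miR-667 and miR-412 lay below it. miR-667 and miR-412 have seeds that no other form of the cluster shares, among the 69 that the reference gives.

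Among the 24 members above background, the largest positive differences after miR-382 were those of miR-411, miR-379, miR-134 and miR-154. miR-411, the neighbour of miR-379, measured 143 and 148 normalized counts in WT against 215 and 176 in TKO cells (log2 difference 0.42, interval -0.045 to 0.88). miR-154 measured 246 and 249 in WT, versus 276 and 294 in TKO cells (log2 difference 0.20). In each of these 5 miRNAs both TKO samples exceeded both WT samples, as for 17.3% of all mouse probes. The 5 were picked for the size of their difference, so this separation is no separate result. None passed the limma threshold.

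The most negative difference above background was that of miR-409-3p, at 105 and 78.7 normalized counts in WT against 84.0 and 51.5 in TKO cells (log2 difference -0.46, interval -1.28 to 0.36). TKO replicate 2 alone was below background for this miRNA, and the genotypes overlapped. miR-323-3p came next, at 296 and 295 in WT, versus 255 and 185 in TKO cells, lower in both TKO samples (log2 difference -0.44, limma adjusted p = 0.291). miR-1193, which shares the seed of miR-379-5p on its 5' arm, measured 117 and 139.9 in WT against 123 and 89.0 in TKO cells (log2 difference -0.29). miR-539 measured 179.8 and 179 in WT, versus 153 and 158 in TKO cells, lower in both TKO samples (log2 difference -0.21, interval -0.59 to 0.18). With miR-410 these were the 5 most negative members above background, and in miR-323-3p, miR-1193, miR-409-3p and miR-410 the value of TKO replicate 2 was well below that of TKO replicate 1.

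**Figure D2:**
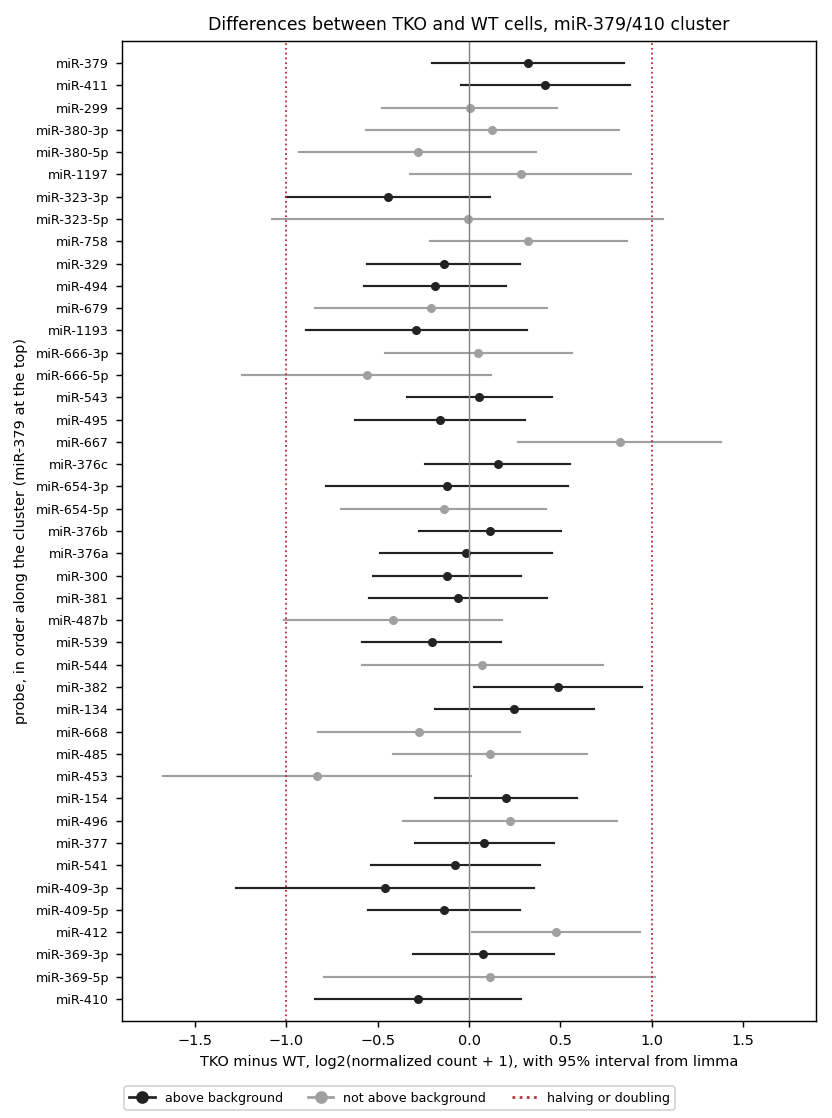
Difference between TKO and WT cells for each of the 43 probes in order along the cluster, as TKO minus WT of log2(normalized count + 1), with the 95% interval from limma (2 samples of each genotype). Black marks are members above background, grey marks the others, and the dotted lines stand at a halving and a doubling. The black points lie between -0.46 and 0.49.

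For the 6 hairpins with both arms measured, the arms can be set side by side. In miR-369 (miR-369-5p at 54.6 and 32.1 normalized counts in WT against 37.6 and 54.7 in TKO cells) and in miR-323 (miR-323-5p at 32.1 and 14.6 in WT, versus 19.8 and 23.6 in TKO cells) the 3' arm was above background and the 5' arm below it in all 4 samples. The log2 differences were 0.078 for miR-369-3p and 0.11 for miR-369-5p, and -0.44 for miR-323-3p and -0.0068 for miR-323-5p. Both arms of miR-409 were above background on average, with miR-409-5p at 82.4 and 86.5 in WT against 72.2 and 81.5 in TKO cells, and log2 differences of -0.46 for the 3' and -0.14 for the 5' arm. Each arm has its own probe, so the arms of a hairpin are compared here only in their differences between the genotypes.

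The other pairs were near or below background. miR-654-3p measured 92.0 and 61.2 normalized counts in WT, versus 65.2 and 72.9 in TKO cells, and miR-654-5p measured 8.56 and 9.71 in WT against 6.92 and 9.65 in TKO cells, with log2 differences of -0.12 and -0.14. The arms of miR-380 had log2 differences of 0.13 for miR-380-3p (34.3 and 22.3 in WT, 27.7 and 33.2 in TKO cells) and -0.28 for miR-380-5p (55.7 and 46.6 in WT, 34.6 and 50.4 in TKO cells). Those of miR-666 were 0.051 for miR-666-3p (38.5 and 30.1 in WT, 37.6 and 33.2 in TKO cells) and -0.56 for miR-666-5p (13.9 and 9.71 in WT, 8.89 and 6.43 in TKO cells). Among these 6 probes only miR-666-5p was separated between the genotypes, with TKO below WT, as for 36.0% of all mouse probes. At its levels a sample held about 10 counts or fewer in 3 of its 4 values. The lowest difference of the cluster was likewise at low counts. It belonged to miR-453, at 16.1 and 10.7 in WT, versus 8.89 and 5.36 in TKO cells (log2 difference -0.83, interval -1.67 to 0.011).

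The remaining members fell into the same ranges. Of those above background, miR-300, whose 3' arm resembles that of miR-381, measured 303 and 315 normalized counts in WT against 269.8 and 298 in TKO cells, lower in both TKO samples (log2 difference -0.12). miR-541 measured 288 and 269 in WT, versus 291 and 240.1 in TKO cells, with overlap (log2 difference -0.075), and miR-494 measured 74.9 and 72.9 in WT against 63.3 and 66.5 in TKO cells, lower in both TKO samples (log2 difference -0.19). The other 9, all with means below background, were miR-299, miR-1197, miR-758, miR-679, miR-487b, miR-544, miR-668, miR-485 and miR-496, with log2 differences from -0.42 (miR-487b) to 0.32 (miR-758). Of these 9, miR-758 was higher and miR-487b lower in both TKO samples, and the other 7 overlapped between the genotypes. Over all mouse probes 17.3% were higher and 36.0% lower in both TKO samples.

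Over the whole cluster the differences were small and fell on both sides of zero. Of the 43 probes, 21 had a positive and 22 a negative log2 difference, with a range of -0.83 to 0.82, quartiles of -0.20 and 0.14 and a median of -0.0068. The median over all 566 mouse probes was -0.12. Both TKO samples lay above both WT samples for 12 members, against 17.3% of all probes, and below them for 8 members, against 36.0% of all probes. The remaining 23 members overlapped between the genotypes.

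Differences of a size common elsewhere on the panel were rare in the cluster. A log2 difference beyond 0.5 in either direction was seen for 3 of the 43 members (6.98%), miR-667, miR-453 and miR-666-5p, and for 152 of the 566 mouse probes (26.9%). A difference beyond 1 was seen for 0 members and for 45 mouse probes (7.95%). Among probes above background the range was -0.46 to 0.49 for the 24 members, with 0 beyond 0.5, and -2.55 to 4.09 for the 214 other probes, with 81 beyond 0.5 (37.9%). The median standard error was close, at 0.17 for members and 0.17 for the others above background. Large differences were also rare in the most similar group, the proximal Dlk1-Dio3 miRNAs described below. Of its 20 probes 1 (5%) lay beyond 0.5 and 0 beyond 1, and of its 11 above background 0 lay beyond 0.5. The shares of the cluster describe the probes of 1 region, which are transcribed together, and were not tested against the rest.

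The intervals give how large a change could have been missed. The 95% interval of limma lay within a halving and a doubling for 35 of the 43 members and for 22 of the 24 above background, against 58.3% of all mouse probes. A doubling in TKO cells lay outside the interval for 40 members, and for 24 of the 24 above background. A change of the size measured for miR-382, in one direction or the other, lay, together with zero, within the interval of 35 members, so changes of that size could not be told from none for them with 2 samples of each genotype.

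**Figure D3:**
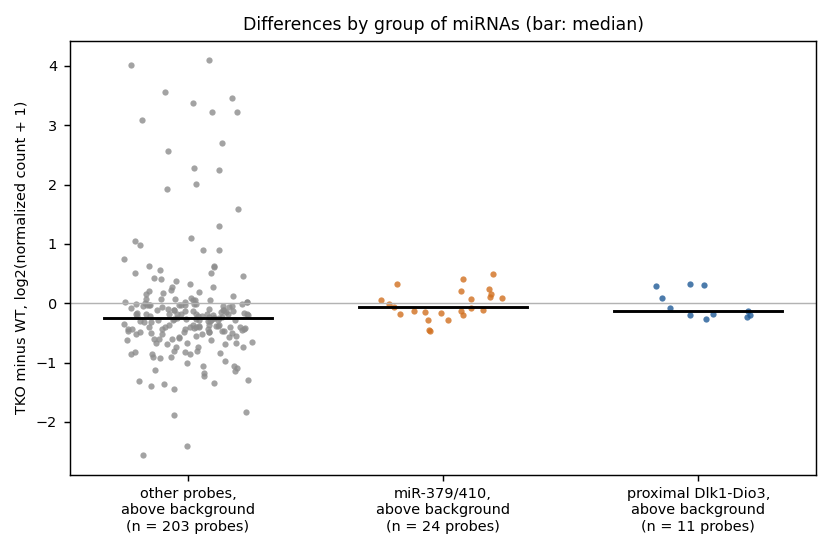
Log2 difference (TKO minus WT) of each mouse probe above background, with 1 point per probe and a bar at the median, for the miR-379/miR-410 cluster (24 probes, median -0.068), the proximal Dlk1-Dio3 miRNAs (11 probes, median -0.14) and the other probes (203 probes, median -0.25). Points are spread sideways for display alone. The points of both Dlk1-Dio3 groups lie within 0.5 of zero.

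Members before Mirg and within it had medians near zero. The 32 probes of hairpins before Mirg had a median log2 difference of -0.011, with 15 positive and 17 negative. The 11 probes of hairpins within Mirg had a median of 0.078, with 6 positive and 5 negative, while their mean was -0.055. limma called 0 members in either stretch, against 4.24% of all mouse probes higher and 4.24% lower. At an unadjusted p under 0.05 it gave 2 before Mirg (miR-382 and miR-667) and 1 within it (miR-412). Over all probes the unadjusted shares were 8.13% higher and 15.4% lower.

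The study sorted miRNA precursors by the CpG methylation at their edges in R1 ESCs. Its groups had methylation marking both edges (bilateral), one edge (upstream or downstream) or neither. The last were split into depleted, without methylation in or near the precursor, and flat, which took the remaining precursors. The paper also describes flat loci as evenly methylated, so flat does not mean free of methylation. Cluster probes of the last kind were all flat. By hairpin name, 20 cluster probes belonged to the methylated groups (3 bilateral, 9 upstream and 8 downstream) and 18 to the flat group, while 5 had no entry. The methylated probes had a median log2 difference of -0.0057 between TKO and WT cells, with 10 positive and 10 negative. The flat probes had a median of -0.065, with 8 positive and 10 negative. limma called 0 probes in either class, against 4.24% of all mouse probes higher and 4.24% lower. At an unadjusted p under 0.05 it gave 0 methylated and 1 flat probe, miR-412, against 8.13% of all probes higher and 15.4% lower. Of the 10 highest members, miR-376b was bilateral, miR-376a and miR-377 were upstream and miR-369-3p was downstream. The flat group held miR-543, miR-495, miR-376c, miR-329 and miR-410. Methylated groups thus held the 3 highest signals in the cluster as well as members at background. By class the flat probes had the higher median of the WT means, at 195 normalized counts against 47.2 for the methylated probes. Of the 18 flat probes 12 were above background, against 9 of the 20 methylated probes. These are values of probes and not of hairpins. Both arms were counted for miR-369, miR-380, miR-409, miR-654 and miR-666 among the methylated probes, and for miR-323 alone among the flat ones. Some of these second arms were weak, such as miR-654-5p (WT mean 9.1 normalized counts) and miR-666-5p (11.8). The levels of the classes were not compared by hairpin. miR-382 and miR-667 were among the 5 without an entry.

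The proximal Dlk1-Dio3 miRNAs, which lie nearer Meg3 or antisense to Rtl1 in the same imprinted region, are the most similar other group on the panel. Of their 20 probes (15 hairpins), limma called 0 higher and 0 lower, against 4.24% of all mouse probes in each direction. At an unadjusted p under 0.05, where 8.13% of all probes were higher and 15.4% lower, it gave 1 higher and 0 lower. That one was miR-337-3p, at 33.2 and 30.1 normalized counts in WT against 53.4 and 51.5 in TKO cells (log2 difference 0.71, adjusted p = 0.0682), below background in every sample. The median log2 difference of the 20 probes was 0.036, with 12 positive and 8 negative, and -0.14 for the 11 above background.

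The 3 highest proximal signals were those of miR-127, miR-136 and miR-434-3p. miR-127, which is processed antisense to Rtl1 and targets its mRNA, measured 1015 and 1086 normalized counts in WT, versus 1063 and 780.4 in TKO cells (log2 difference -0.20). miR-136, from the same antisense transcript, measured 704 and 719.7 in WT against 869 and 914 in TKO cells (log2 difference 0.32). miR-434-3p measured 514 and 479.8 in WT, versus 636 and 587 in TKO cells (log2 difference 0.30). miR-136 and miR-434-3p were higher in both TKO samples, as for 17.3% of all mouse probes. miR-127 overlapped, with TKO replicate 1 between the WT samples and TKO replicate 2 below both.

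Markers of cell type were read beside these values. The 16 probes of ESC miRNAs summed to 338494 and 332465 normalized counts in WT and to 273147 and 297060.0 in TKO cells, led by miR-294, miR-295 and miR-293, with 4 called higher in TKO cells by limma, all of the miR-302/367 cluster. The 7 neural probes summed to 901 and 802 in WT and to 453 and 479 in TKO cells, of which 3 were above background. Most of that difference was miR-124, the classic neuronal miRNA, at 499.8 and 457 in WT against 132 and 134 in TKO cells (log2 difference -1.84, limma adjusted p = 0.0062). The cluster miRNAs named as known from neurons or stem cells had log2 differences of 0.25 (miR-134), -0.14 (miR-329), -0.062 (miR-381) and -0.16 (miR-495). miR-129-3p and miR-9, the next neural probes, had log2 differences of -0.21 and -0.29, and miR-9 overlapped between the genotypes. Of the 7 neural probes 5 had a negative and 2 a positive difference. The positive ones were miR-137 (0.36) and miR-219 (0.095), both below background.

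Markers of other cell types were low beside those of ESCs. The 8 fibroblast or mesenchymal probes, of which 4 were above background, summed to 800.5 and 717 normalized counts in WT and to 851 and 884 in TKO cells, and 1 of them, miR-152, was called higher. The 5 blood probes, of which 3 were above background, summed to 1379 and 1277 in WT and to 1449.8 and 1621 in TKO cells. Of these probes 1, miR-150, was called lower. The highest, miR-142-3p, was higher in both TKO samples and not called, at 806.9 and 761.5 in WT against 1159 and 1278 in TKO cells (log2 difference 0.63, limma adjusted p = 0.0944). The 5 muscle probes and the liver miRNA miR-122 were below background in every sample. The part of these shifts in the values of the cluster was not tested.

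The zero point of the differences rests on how the samples were scaled. Dividing each sample by its sum over the mouse probes moved the median of all probes from -0.12 to 0.0089, and that of the cluster from -0.0068 to 0.12. Scaling moves all values of a sample alike, so that the distance between both medians (0.115 as normalized by the authors) can change with it only through the pseudocount. Without WT replicate 1 the distance was 0.0615. The median level of the cluster in a sample had an SD of 0.112 between replicates. That SD includes shifts common to all probes, so it does not measure the spread of the distance. The distance was not tested.

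**Figure D4:**
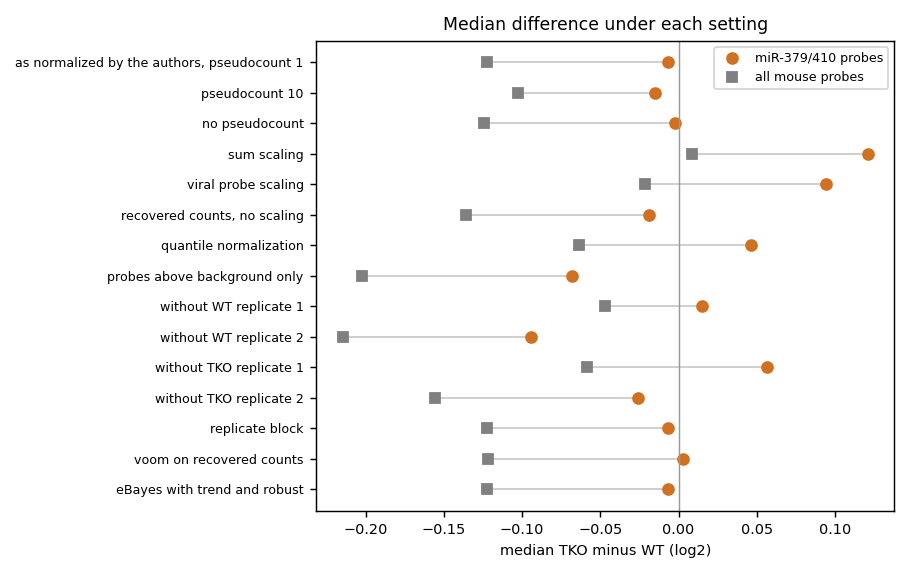
Median log2 difference (TKO minus WT) over the 43 cluster probes (orange circles) and over all 566 mouse probes (grey squares) for the values as normalized by the authors and for 14 alternatives (24 and 238 probes in the alternative limited to probes above background). The cluster median lies to the right of the panel median in each line, by 0.0615 to 0.134.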

How the data were processed

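Total RNA was isolated with a column kit and hybridised with the NanoString nCounter mouse miRNA panel. Counts were normalized in nSolver by the authors, with settings not given in the sources used here, and were deposited by them as log2 values for 599 probes in 4 samples. Within each sample the values on the linear scale were whole multiples of 1 step (1.07, 0.971, 0.988 and 1.07 for WT replicates 1 and 2 and TKO replicates 1 and 2), and whole counts were recovered for 100% of the values within 0.05. Before the test a pseudocount of 1 was added to the normalized counts and log2 was taken, a scale that understates the change of low probes. TKO and WT cells were compared over the 566 mouse probes with lmFit and eBayes of limma 3.58.1 in R 4.3.3, without a replicate block, and p-values were adjusted by Benjamini-Hochberg at a threshold of 0.05. Intervals are 95% intervals from this fit. Over the probes the replicates of a genotype correlated at r = 0.987 (WT) and 0.986 (TKO), and their recovered counts differed beyond sampling noise (chi-square over degrees of freedom 5.14 and 16.4). miRNAs of the cluster are not replicates, so no test was made over them.

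Named with their values were the 10 highest members, the 5 largest differences of each sign above background, hairpins with both arms measured, the ends of the cluster, members known from neurons or stem cells (miR-134, miR-329, miR-381, miR-495), the miR-376 family and called members. miR-667, miR-412, miR-453 and the other members outside this rule were added after their values were seen. For the proximal list the 3 highest and, added after its value was seen, miR-337-3p were named. The members and lists were chosen with earlier results of these data known. Methylation groups came from the study's list of precursors, and mature sequences and positions from RefSeq by miRNA name. The fits were tested on simulated data. Alternatives covered the pseudocount, the scaling, a filter on low values, each replicate left out, a replicate block, voom on the recovered counts and an intensity trend. Tables were handled with Python 3.11.15, numpy 2.4.6 and pandas 2.3.3, and figures drawn with matplotlib 3.10.9.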

Additional observations from a re-analysis of the deposited data

How the results depend on the processing

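The count of cluster members called stayed at 0 in each direction, except for 1 called higher (miR-667) with viral probe scaling and 1 called higher (miR-382) with an intensity trend and robust hyperparameters. Leaving out each replicate in turn gave 0 calls among members (0 to 2 higher and 0 to 2 lower at an unadjusted p under 0.05), while over all mouse probes limma called 13 higher and 1 lower without WT replicate 1 (54 and 48 unadjusted), 8 and 1 without WT replicate 2 (38 and 63 unadjusted), and 0 without TKO replicate 1 (39 higher and 75 lower unadjusted) or TKO replicate 2 (37 and 64), so none of the marker calls, miR-124 among them, held in each of these fits. Over all probes the calls were 24 higher and 24 lower as reported, 30 and 55 with voom, 32 and 57 with the intensity trend, 26 and 48 among probes above background, 27 and 17 with sum scaling, 33 and 24 with viral probe scaling and 24 and 15 with quantile normalization. The median log2 difference of the cluster was 0.12 with sum scaling and ranged from -0.095 (without WT replicate 2) to 0.056 (without TKO replicate 1) with a replicate left out, and it was 0.015 without WT replicate 1. That of the proximal miRNAs was -0.14 among probes above background and ranged from -0.12 to 0.15 with a replicate left out. The cause of these shifts was not tested.

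The deviations of same-numbered samples correlated at -0.094, so no deviation shared by replicate number was seen. A single correlation cannot tell whether the samples were collected in pairs. With the replicate number as a block limma called 0 members (1 higher and 2 lower at an unadjusted p under 0.05, smallest adjusted p 0.130, for miR-453), and over all probes 20 higher and 10 lower (41 and 66 unadjusted). The median of the cluster stayed at -0.0068.

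For single miRNAs, 543 of 583 alternative values kept their direction and their side of the threshold, 2 passed it and 38 changed sign. The sign changes fell in 17 miRNAs, all uncalled with differences of at most 0.22 in size as reported. With sum scaling the log2 difference was 0.012 for miR-300, 0.12 for miR-323-5p, 0.12 for miR-376a, 0.072 for miR-381, 0.059 for miR-541 and 0.012 for miR-654-3p. With viral probe scaling it was 0.094 for miR-323-5p, 0.088 for miR-376a, 0.041 for miR-381 and 0.028 for miR-541. With quantile normalization it was 0.039 for miR-323-5p, 0.23 for miR-376a and 0.17 for miR-495, with unscaled counts it was -0.0096 for miR-299, and with voom it was 0.0028 for miR-323-5p. With a replicate left out the values spanned -0.15 to 0.16 for miR-299, -0.55 to 0.54 for miR-323-5p, -0.26 to 0.49 for miR-369-5p, -0.17 to 0.14 for miR-376a, -0.17 to 0.42 for miR-380-3p, -0.19 to 0.066 for miR-381, -0.078 to 0.30 for miR-485, -0.024 to 0.47 for miR-496, -0.21 to 0.062 for miR-541, -0.010 to 0.12 for miR-543, -0.21 to 0.35 for miR-544, -0.41 to 0.17 for miR-654-3p, -0.35 to 0.074 for miR-654-5p, -0.12 to 0.22 for miR-666-3p and -0.48 to 0.069 for miR-679. Few counts stood behind the lowest members, down to 5 for miR-453 in TKO replicate 2.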
